A study of Rattus norvegicus with 10 samples.

Results

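The genes described here were 38 ion channels, pumps and solute carriers of rat soleus myoblasts, out of 32622 genes in the count table. They were picked from the study's lists of genes that changed against Control, which held 817 genes, 770 of them with a symbol. A gene was taken when its symbol began with one of a fixed set of prefixes for transport genes (such as Slc, Kcn, Scn, Cacn, Chrn, Ryr, Trpv, Piezo and Stac), and *Atp2a3* was set aside. Entry to the lists required, in the same libraries, a log2 fold change larger than 1.5 in size and an adjusted p below 0.01, so every comparison with Control below is a description with no test. Of the 38 genes, 7 were listed for HS1, 7 for HS3, 26 for HS7 and 6 for HS14, and 7 of them were listed for more than 1 of these groups.

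The cells were primary cultures grown from the soleus of 3-month-old male Wistar rats. The rats were untreated (Control, day 0) or kept in hindlimb suspension (HS), which lifts the hind paws off the floor and takes the body weight off the muscle, for 1, 3, 7 or 14 days (HS1, HS3, HS7 and HS14). After pre-plating to deplete fibro-adipogenic progenitors, the cells spent a short time in culture before RNA was taken, so the counts describe cells in a dish and not muscle fibres in the animal. Each group had 2 libraries. The sources used here do not say whether the 2 came from separate animals or cultures, so the p-values measure the spread between these samples, which may be technical.

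In a muscle fibre, acetylcholine opens the receptor at the endplate, the muscle sodium channel carries the action potential along the membrane, and potassium channels restore the resting state. The voltage then moves the calcium channel of the transverse tubule, which opens the ryanodine receptor of the sarcoplasmic reticulum and releases calcium. Carriers of the Slc and Slco families move lactate, nucleosides, ions and lipids across membranes, and myoblasts switch on many of the channel genes as they differentiate.

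Library totals ran from 20200972 to 28175200 counts. Levels are given as CPM, counts scaled to the library size with TMM, whose factors lay between 0.967 and 1.03. A count of 3, the smallest level taken as detectable here, corresponded to between 0.104 and 0.152 CPM. Between the 2 libraries that shared a group, the biological coefficient of variation ran from 4.35% in Control to 9.07% in HS3. Because the data carry Ensembl identifiers and symbols were known only for the listed genes, marker lists were seen in part. Of 10 myogenic differentiation markers, 8 had a symbol (*Myog*, *Mymk*, *Mymx*, *Myh3*, *Acta1*, *Tnnt1*, *Tnnc1* and *Ckm*), and their summed CPM was 1044 to 1114 in Control, 717 to 804 at HS1, 2415 to 2480 at HS3, 3628 to 5866 at HS7 and 692 to 755 at HS14. Of 9 fibroblast markers, 7 had a symbol, and their summed CPM was 8320 to 8837 in Control, 2589 to 2602 at HS1, 17839 to 21822 at HS3, 8950 to 9024 at HS7 and 3106 to 3333 at HS14. *Col1a1* alone made up most of this sum, at 6536 and 7006 CPM in Control. At HS7 *Pdgfra*, *Fbn1* and *Thy1* were below Control and the other fibroblast markers above it. At HS14 *Dcn* and *Lum* were above Control and the others below it. The 3 Schwann and glial markers with a symbol summed to 25.1 to 27.3 CPM in Control, 5.92 to 6.99 at HS1, 54.5 to 58.0 at HS3, 57.8 to 82.3 at HS7 and 19.0 to 21.5 at HS14. Of these, *S100b* was lower at HS7 than in Control, while *Erbb3* and *Ngfr* were higher. The 3 of smooth muscle and pericytes summed to 198 to 200 CPM in Control, 73.1 at HS1, 377 to 410 at HS3, 218 to 261 at HS7 and 154 to 182 at HS14, with *Rgs5* at 0 in both Control libraries. The 4 endothelial markers summed to between 0.817 and 11.9 CPM, highest in HS14, with *Emcn* at 0 in both HS1 libraries and in 1 library each of Control and HS3. None of the listed markers of satellite cells, immune cells or proliferation had a symbol. The part of these cell types in the results below was not tested, and in bulk RNA fewer cells of a type cannot be told apart from less RNA per cell.

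The 2 HS7 libraries stood apart from each other for the muscle channels. All 12 genes of excitation-contraction coupling and membrane excitability were higher in HS7 replicate 1 than in replicate 2, with a median difference of 0.80 on the log2 scale of CPM plus 0.5, and the medians in the other groups lay between -0.11 and 0.02. The 8 myogenic markers were likewise higher in HS7 replicate 1, 8 of 8 with a median of 0.66, and the other 26 genes had a median of 0.15, 15 of 26 higher.

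Against Control, genes were counted as called at the thresholds of the study's lists, with edgeR's quasi-likelihood test. In HS1, 7 of 38 were called, all lower, beside 2.27% of all genes tested (0.0922% higher and 2.18% lower). In HS3, 6 were higher and 1 was lower, beside 1.13% (0.777% and 0.350%). In HS7, 13 were higher and 9 were lower, beside 3.59% (1.95% and 1.63%), and the 22 became 11 without Control replicate 2. In HS14, 2 were higher and 4 were lower, beside 2.54% (0.524% and 2.01%). These counts follow from how the genes were chosen and nothing is read from them. Close to the threshold, *Slc24a3* in HS7 stood at a log2 fold change of 1.51 and *Ryr1* in HS3 at 1.48 among the listed values, and *Slc47a1* in HS14 at -1.48, *Ryr1* in HS7 at 1.44 and *Cacna1g* in HS7 at -1.43 among those not listed.

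By group means, 17 genes were highest in HS7, 13 at HS3, 4 at HS1, 3 in Control and 1 at HS14, and 16 were lowest in HS1, 9 at HS7, 6 at HS14, 4 in Control and 3 at HS3. In 14 of the 17 HS7 genes and 11 of the 13 HS3 genes, both libraries of the group lay above the other 8. This order is a description too, since most genes entered through HS7.

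**Figure D1:**
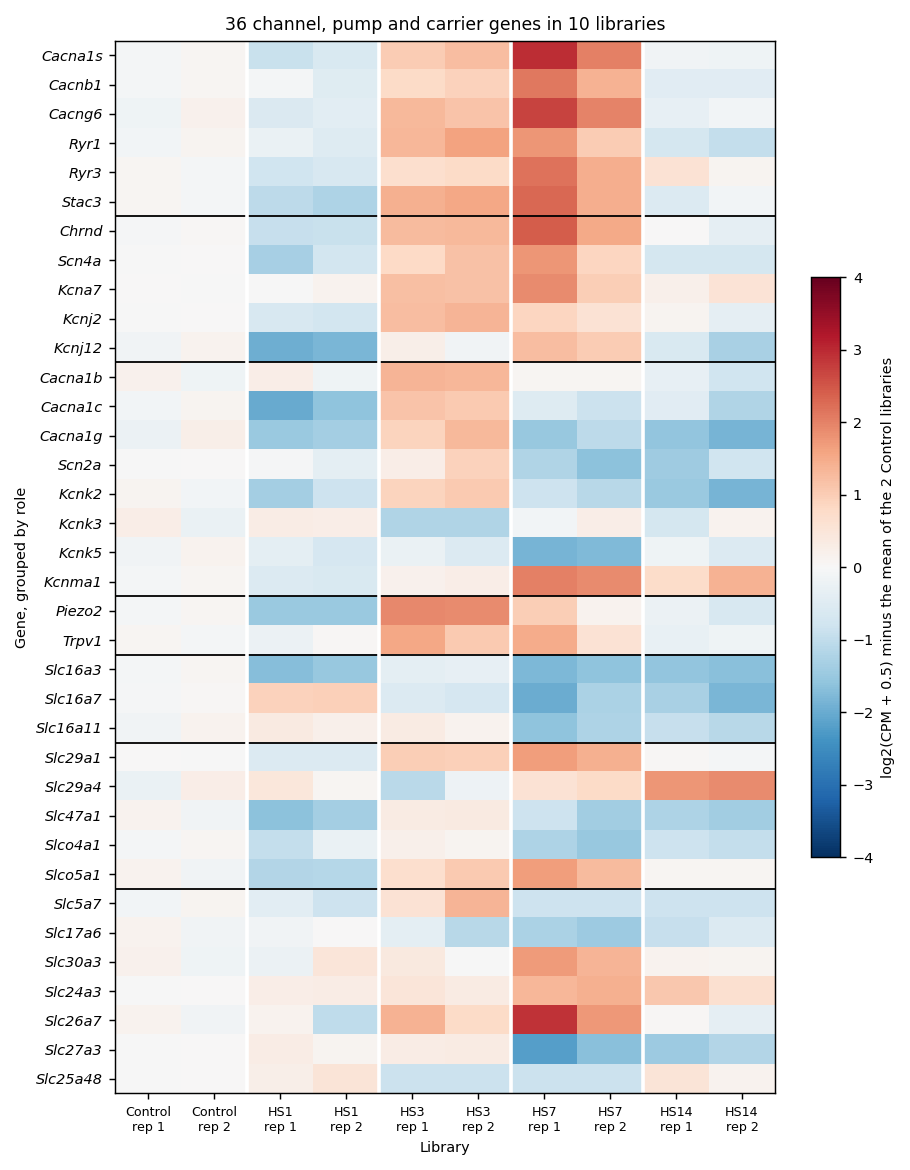
Level of 36 genes (rows, grouped by role) in each of the 10 libraries (columns), as log2(CPM + 0.5) minus the mean of the 2 Control libraries, with red above and blue below Control. Most of the muscle channel rows at the top are blue in HS1, red in HS3 and HS7 and near or below Control in HS14, and HS7 replicate 1 is darker than replicate 2 in them. Kcna7 is not below Control in HS1, Kcnj12 overlaps Control in HS3, and both HS14 libraries lie above Control for Kcna7 and Ryr3.

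Between HS groups, tests were run for genes listed for neither of the 2 groups compared. Such genes entered through other HS groups, but being unlisted for these 2 was itself decided from the libraries tested. Some large differences, such as that of *Piezo2* between HS3 and HS1 (3.92), were left out in this way. The sources used here do not say whether the study's fits drew on further groups for the spread, so independence is not complete. A gene passed when edgeR's quasi-likelihood test gave an adjusted p under 0.01 after the Benjamini-Hochberg correction across all tested genes. Every gene open to a test in a comparison was fitted, but the expression filter asks only that 2 of the 4 libraries reach its level, so a gene can enter through the group in which it is high. Between HS3 and HS1, 15 of 25 genes passed, 13 higher in HS3 and 2 lower, with a median log2 fold change of 1.15 over the 25 (of all genes tested, 30.5% passed, 17.2% higher and 13.3% lower, with a median of -0.01). Between HS14 and HS3, 15 of 25 passed, 1 higher in HS14 and 14 lower, with a median of -1.17 (all genes 31.9%, 13.8% higher and 18.1% lower, median 0.01). The other listed genes under the same rule passed in 206 of 379 (54.4%, 161 higher and 45 lower) and 227 of 393 (57.8%, 29 higher and 198 lower). The share of transport genes that passed was thus near that of listed genes in general, and both leaned the same way.

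The other comparisons left fewer genes to test. Between HS7 and HS3, 5 of 6 passed, 1 higher in HS7 and 4 lower (all genes 23.0%, 10.1% and 12.9%). Other listed genes under the same rule passed in 151 of 233 (64.8%), 17 higher in HS7 and 134 lower. Between HS14 and HS1, 9 of 27 passed, 6 higher in HS14 and 3 lower, with a median of 0.23 (all genes 24.8%, 12.0% and 12.8%). Between HS7 and HS1, 2 of 7 passed, both higher in HS7 (all genes 34.1%, 17.5% higher), and the 2 became 1 without HS1 replicate 1, 0 without HS1 replicate 2 and 1 without HS7 replicate 1. Between HS14 and HS7, 3 of 9 passed, all lower in HS14 (all genes 23.5%, 12.0% lower), and the 3 became 1 without either HS14 library. The shares of 33.3% between HS14 and HS1, 28.6% between HS7 and HS1 and 33.3% between HS14 and HS7 were near those of all genes. Some genes reached the filter in fewer than 2 libraries of a group. Without them, 13 of 21 passed between HS3 and HS1, 12 higher in HS3 and 1 lower. Between HS14 and HS3, 14 of 23 passed, all 14 lower in HS14. Between HS14 and HS1, 8 of 22 passed, 5 higher in HS14 and 3 lower, and between HS14 and HS7, 3 of 7, all lower in HS14. *Slc5a7*, *Slc25a48* and *Kcnma1* reached the filter in no library of 1 group in comparisons that they passed, and no p is given for them there. *Slc25a48* was the 1 gene counted above as higher in HS14 than in HS3. Each HS group enters 3 of the 6 comparisons, so their values are not independent of each other.

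**Figure D2:**
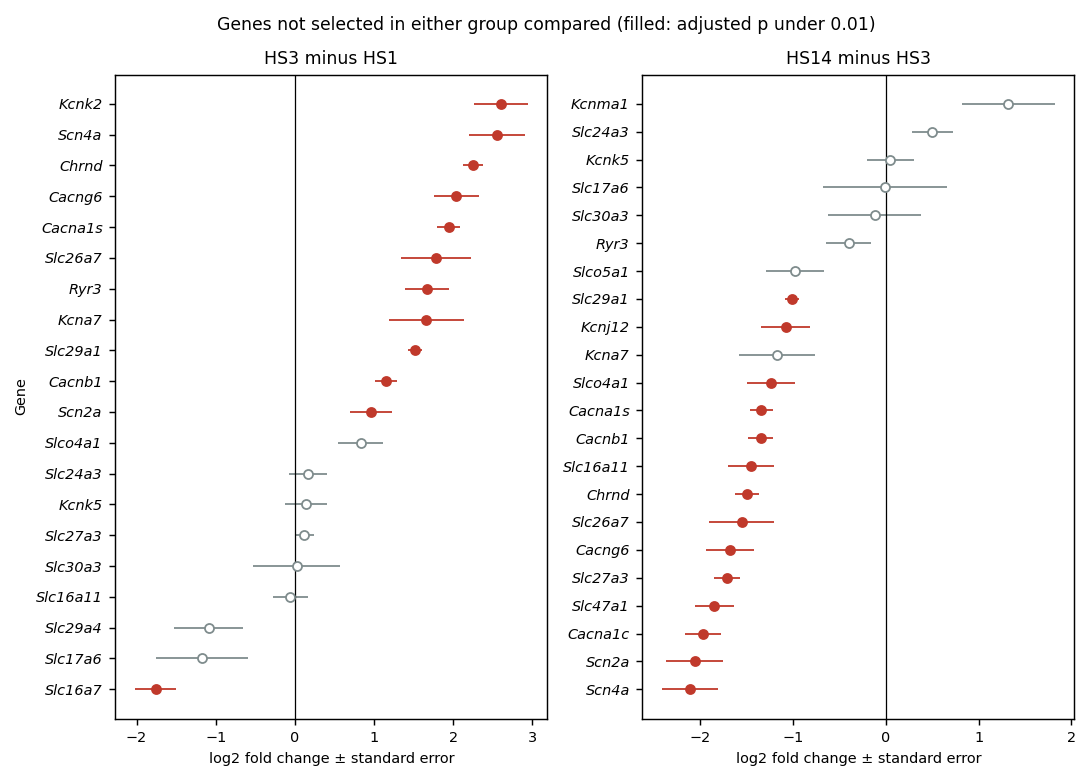
Log2 fold change with its standard error for genes listed for neither group compared, HS3 minus HS1 on the left and HS14 minus HS3 on the right, each panel ordered by size, with filled red points for an adjusted p under 0.01 and open points otherwise. Genes that reached the expression filter in no library of 1 group are left out (Kcnma1, Slc5a7 and Slc25a48 on the left, Slc25a48 on the right). Most filled points lie to the right of 0 on the left panel and all lie to the left of 0 on the right panel.

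Of the 6 genes of excitation-contraction coupling, the 4 open to a test were all higher in HS3 than in HS1 (all genes 17.2%). Lower in HS14 than in HS3 were 3 of 4 (all genes 18.1%). Other listed genes passed in these directions in 161 of 379 and 198 of 393. Nothing about the role is read from so few genes. *Cacna1s* encodes the voltage-sensing pore subunit of the muscle L-type calcium channel. Its CPM was 15.7 and 17.2 in Control, 8.54 and 10.6 at HS1, 33.8 and 39.5 at HS3, 130 and 67.6 at HS7, and 14.9 and 14.5 at HS14. Both HS3 and both HS7 libraries lay above every other library, and both HS1 libraries lay below. From HS1 (9.58 ± 1.47, SD, n = 2) to HS3 (36.6 ± 4.04, n = 2) the log2 fold change was 1.94 (SE 0.14, adjusted p = 6.97e-13). From HS3 to HS14 (14.7 ± 0.290, n = 2) it was -1.34 (SE 0.12, adjusted p = 1.48e-09), and this call was lost when all 10 libraries were fitted together (adjusted p = 0.0228). The smaller difference of HS14 over HS1, 0.60 (adjusted p = 0.00322), was lost without HS1 replicate 1 (0.44, adjusted p = 0.0337) and without HS14 replicate 1 (0.58, adjusted p = 0.0149), and with DESeq2 (adjusted p = 0.015) and all 10 libraries (0.275). Against Control, the log2 fold change in HS7 was 2.59 (SE 0.50) and lay between 2.04 and 2.98 over the alternatives.

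Genes of calcium channel accessory subunits had a similar course. *Cacnb1* encodes the muscle beta subunit, and its CPM was 14.2 and 15.6 in Control, 14.0 and 10.5 at HS1, 25.4 and 28.8 at HS3, 66.3 and 39.9 at HS7, and 10.8 in both HS14 libraries. *Cacng6* encodes a gamma subunit, with 1.90 and 2.58 CPM in Control, 1.31 and 1.52 at HS1, 6.15 and 5.48 at HS3, 17.1 and 10.2 at HS7, and 1.66 and 2.02 at HS14. For both genes HS7 lay above HS3 and HS3 above the other 6 libraries, with no overlap. The rise from HS1 to HS3 was 1.15 for *Cacnb1* (SE 0.14, adjusted p = 1.07e-07) and 2.04 for *Cacng6* (SE 0.28, adjusted p = 6.49e-07). HS14 was lower than HS3, with log2 fold changes of -1.35 (SE 0.13, adjusted p = 4.96e-09) and -1.68 (SE 0.26, adjusted p = 8.20e-06). HS14 and HS1 did not differ detectably, at -0.21 (SE 0.15, adjusted p = 0.316) and 0.35 (SE 0.35, adjusted p = 0.464). In the current rat annotation *Cacnb1* overlaps the ribosomal protein gene *Rpl19*, and without the strand setting of the counting their reads cannot be told apart with certainty.

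Of the ryanodine receptors, the calcium release channels, *Ryr1* was listed for HS3 and *Ryr3* for HS7. Which group was highest is therefore a description only. *Ryr1*, the muscle form, was at 29.2 and 33.7 CPM in Control, 26.1 and 21.7 at HS1, 80.0 and 96.3 at HS3, 107 and 63.6 at HS7, and 18.9 and 15.9 at HS14. Its HS3 and HS7 libraries overlapped, and both HS14 libraries were the lowest of the 10. *Ryr3*, a form found in immature muscle, was at 3.20 and 2.88 CPM in Control, 1.55 and 1.79 at HS1, 5.08 and 5.48 at HS3, 15.4 and 9.28 at HS7, and 4.80 and 3.28 at HS14. *Ryr3* was lowest in HS1 and highest in HS7, and its HS14 libraries stayed above Control.

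In the tests open to *Ryr1*, HS7 over HS1 was 1.82 (SE 0.37, adjusted p = 0.048) and HS14 below HS7 was -2.28 (SE 0.39, adjusted p = 0.0527). Neither passed, although the libraries did not overlap. Both passed with DESeq2 (adjusted p = 1.53e-05 and 3.97e-08) and with all 10 libraries in one fit (0.00232 and 0.00142). The folds were 1.40 and -1.86 without HS7 replicate 1 and 2.15 and -2.60 without HS7 replicate 2. Leaving out 1 HS7 library removes the spread between the 2, so nothing is read from whether those fits passed. Neither passed with RLE size factors (adjusted p = 0.0499 and 0.0538) or with no expression filter (0.115 and 0.103), nor did the first without HS1 replicate 1 (0.254) or 2 (0.288) or the second without HS14 replicate 1 (0.259) or 2 (0.294). *Ryr1* was lower in HS14 than in HS1 (log2 fold change -0.48, SE 0.12, adjusted p = 0.00488), a call lost without HS1 replicate 1 (-0.34, adjusted p = 0.0537), without HS14 replicate 2 (-0.36, adjusted p = 0.0353), with DESeq2 (0.0207) and with all 10 libraries (0.314). *Ryr3* rose from HS1 to HS3 by 1.67 (SE 0.28, adjusted p = 1.40e-05). HS14 over HS1 was 1.26 for *Ryr3* (SE 0.29, adjusted p = 0.00201), lost without HS14 replicate 1 (0.95, adjusted p = 0.0608) and with DESeq2 (0.0125). HS14 against HS3 was -0.40 (SE 0.24, adjusted p = 0.179).

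*Stac3* encodes the adaptor that holds the calcium channel in working order in the membrane, and it was listed for HS3 and HS7. It had 3.60 and 3.11 CPM in Control, 1.35 and 1.13 at HS1, 9.76 and 10.7 at HS3, 18.6 and 10.0 at HS7, and 2.11 and 3.07 at HS14. Both HS1 libraries lay below all others, and the lower HS7 library lay between the 2 HS3 libraries. The one test open to it, HS14 against HS1, gave 1.03 (SE 0.34, adjusted p = 0.0246). Without a test, *Stac3* was higher in HS3 than in HS1 by 3.04 (SE 0.25) and lower in HS14 than in HS3 (log2 fold change -2.01, SE 0.22).

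**Figure D3:**
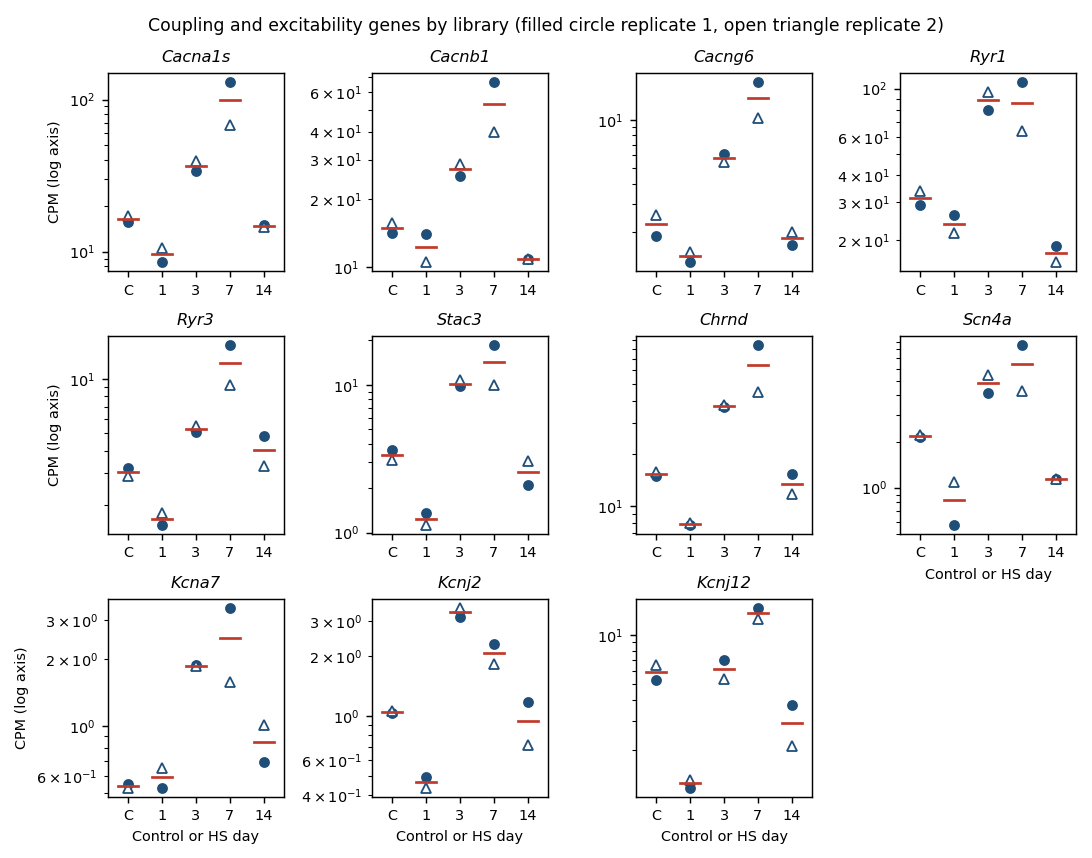
CPM on a log axis, scaled per panel, of 11 coupling and excitability genes in Control (C) and by day of HS (1, 3, 7 or 14), with filled circles for replicate 1, open triangles for replicate 2 and red bars for the mean of the 2. In every panel the HS7 circle lies above the HS7 triangle, and in 9 of 11 panels the highest mean is in HS7.

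Other genes of calcium handling were looked at from a list of 21, of which 5 had a symbol. *Casq2* and *Hrc* bind calcium in the sarcoplasmic reticulum, *Srl* encodes sarcalumenin, and *Sln* and *Pln* encode small inhibitors of the calcium pump. All 5 were higher in HS3 than in HS1, with log2 fold changes of 1.31 for *Casq2* (adjusted p = 2.76e-12), 2.50 for *Hrc* (2.11e-10), 1.40 for *Srl* (4.81e-14), 2.06 for *Sln* (3.22e-14) and 1.17 for *Pln* (0.000319). The 3 open to a test between HS14 and HS3, *Casq2*, *Hrc* and *Srl*, were all lower in HS14, with log2 fold changes of -2.25 (adjusted p = 1.93e-15), -2.42 (1.31e-09) and -1.20 (1.41e-11). *Casq2* was also lower in HS14 than in HS1 (-0.95, adjusted p = 9.73e-07). All 5 had been listed by the study, so the 16 genes without a symbol are not represented. Of listed genes outside the 38, 161 of 379 passed as higher in HS3 than in HS1 (all genes 17.2%). Lower in HS14 than in HS3 were 198 of 393 (all genes 18.1%).

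The 250 bases upstream of the annotated starts of the 38 genes were read from RefSeq on the GRCr8 build. A window was given for 28 of the 38 genes (31 windows). The E-box letters CANNTG were present, on either strand, in 9 of 9 windows of the coupling and excitability genes (8 genes, with 2 windows for *Ryr3*), in 20 of 31 windows of all members and in 65.5% of 33469 windows of all genes. The form CAGCTG, itself a CANNTG, was in 4 of the 9, in 7 of the 31 and in 12.0% of all. The MCAT letters CATTCC were in 2 of the 9, in 6 of the 31 and in 12.1% of all. A match describes letters only and was not tested against binding. The 4 windows of these muscle genes that hold CAGCTG are printed 5′ to 3′ on the gene's strand with that match in capitals, taken from chr13:50045418-50045667 on the plus strand for *Cacna1s*, chr7:65228225-65228474 on the plus strand for *Stac3*, chr10:91796325-91796574 on the minus strand for *Scn4a* and chr10:96559975-96560224 on the plus strand for *Kcnj2*. *Cacna1s* and *Stac3* each hold 2 matches, and the pair in *Stac3* lies close to the start.
Cacna1s: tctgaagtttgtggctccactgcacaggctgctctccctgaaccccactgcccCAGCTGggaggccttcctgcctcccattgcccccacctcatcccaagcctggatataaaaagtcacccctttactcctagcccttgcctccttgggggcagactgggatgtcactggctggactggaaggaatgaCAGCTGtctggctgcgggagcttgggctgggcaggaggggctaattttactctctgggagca
Stac3: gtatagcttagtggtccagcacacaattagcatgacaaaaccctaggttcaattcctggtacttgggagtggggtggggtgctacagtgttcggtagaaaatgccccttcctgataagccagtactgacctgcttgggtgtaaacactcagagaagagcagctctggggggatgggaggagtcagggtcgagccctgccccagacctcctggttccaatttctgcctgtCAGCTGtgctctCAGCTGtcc
Scn4a: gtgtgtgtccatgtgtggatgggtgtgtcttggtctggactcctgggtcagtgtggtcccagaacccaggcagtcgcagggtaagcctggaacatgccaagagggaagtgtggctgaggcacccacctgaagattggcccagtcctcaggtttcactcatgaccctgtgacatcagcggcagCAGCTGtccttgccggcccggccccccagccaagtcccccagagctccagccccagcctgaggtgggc
Kcnj2: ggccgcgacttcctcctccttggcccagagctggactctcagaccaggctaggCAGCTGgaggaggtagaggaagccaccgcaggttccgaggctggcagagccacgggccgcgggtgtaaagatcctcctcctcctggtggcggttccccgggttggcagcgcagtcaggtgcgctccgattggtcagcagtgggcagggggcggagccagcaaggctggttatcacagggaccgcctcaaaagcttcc

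Of the 6 genes of the endplate and of membrane excitability, 3 of the 4 open to a test were higher in HS3 than in HS1. Lower in HS14 than in HS3 were 3 of 5. The shares of all genes in these directions were 17.2% and 18.1%, and of other listed genes 161 of 379 and 198 of 393. *Chrnd* encodes the delta subunit of the muscle acetylcholine receptor. It had 14.9 and 15.7 CPM in Control, 7.85 and 8.06 at HS1, 37.2 and 38.2 at HS3, 83.8 and 45.1 at HS7, and 15.3 and 11.7 at HS14. HS1 lay below all other libraries, and both HS7 libraries lay above both HS3 libraries. From HS1 (7.95 ± 0.149, SD, n = 2) to HS3 (37.7 ± 0.674, n = 2) the log2 fold change was 2.25 (SE 0.13, adjusted p = 5.97e-15), and from HS3 to HS14 (13.5 ± 2.55, n = 2) it was -1.50 (SE 0.13, adjusted p = 5.71e-10). HS14 exceeded HS1 by 0.75 (SE 0.16, adjusted p = 0.00119), a call lost without HS14 replicate 1 (0.53, adjusted p = 0.0388) and with all 10 libraries (0.141).

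*Scn4a* encodes the sodium channel that carries the muscle action potential. Its CPM was 2.13 and 2.20 in Control, 0.572 and 1.09 at HS1, 4.17 and 5.48 at HS3, 8.55 and 4.30 at HS7, and 1.14 in both HS14 libraries. HS3 and HS7 overlapped and both lay above the rest. *Scn4a* rose from HS1 to HS3 by 2.55 (SE 0.35, adjusted p = 4.59e-07) and was lower in HS14 than in HS3 (log2 fold change -2.11, SE 0.30, adjusted p = 2.71e-06), while HS14 against HS1 did not pass (0.44, SE 0.46, adjusted p = 0.488). *Kcna7* encodes a voltage-gated potassium channel, with 0.553 and 0.531 CPM in Control, 0.531 and 0.653 at HS1, 1.88 and 1.87 at HS3, 3.40 and 1.58 at HS7, and 0.691 and 1.01 at HS14. Its Control and HS1 libraries overlapped at the low end. The difference of HS3 over HS1, 1.66 (SE 0.47, adjusted p = 0.00467), was lost with DESeq2 (0.0338) and without any one of the 4 libraries (1.51 to 1.81, adjusted p from 0.0154 to 0.0408).

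The inward rectifiers *Kcnj2* and *Kcnj12*, which hold the resting potential, had their highest levels in different groups. *Kcnj2* had 1.03 and 1.06 CPM in Control, 0.490 and 0.435 at HS1, 3.15 and 3.50 at HS3, 2.31 and 1.82 at HS7, and 1.18 and 0.716 at HS14. It was highest in HS3, with no overlap. *Kcnj12* had 5.34 and 6.60 CPM in Control, 1.18 and 1.31 at HS1, 7.01 and 5.37 at HS3, 14.6 and 12.4 at HS7, and 3.73 and 2.10 at HS14. It was highest in HS7, and its HS3 and Control libraries overlapped. *Kcnj2* was higher in HS7 than in HS1 by 2.13 (SE 0.44, adjusted p = 0.00114), lost without HS1 replicate 2 (2.04, adjusted p = 0.0124) and without HS7 replicate 1 (1.95, adjusted p = 0.011). Its HS14 value against HS7 was -1.10 (SE 0.39, adjusted p = 0.0375).

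*Kcnj12* rose from HS3 (6.19 ± 1.16, SD, n = 2) to HS7 (13.5 ± 1.61, n = 2) by 1.11 (SE 0.19, adjusted p = 0.00042) and was lower in HS14 (2.92 ± 1.15, n = 2) than in HS7 (log2 fold change -2.18, SE 0.23, adjusted p = 3.69e-06). HS14 below HS3, -1.08 (SE 0.26, adjusted p = 0.00172), was lost without HS14 replicate 2 (-0.74, adjusted p = 0.0417) and with DESeq2 (0.0105). *Fxyd1*, the one gene of a list of 15 excitability genes with a symbol, encodes phospholemman, a small membrane protein that regulates ion transport, and was higher in HS14 than in HS1 by 0.96 (SE 0.24, adjusted p = 0.00383). Of 11 endplate genes, *Lrp4* and *Ache* had a symbol. *Lrp4*, the agrin receptor, was higher in HS3 than in HS1 by 1.48 (adjusted p = 5.71e-14) and lower in HS14 than in HS3 (log2 fold change -0.71, adjusted p = 8.36e-07). *Ache*, acetylcholinesterase, was lower in HS14 than in HS7 (log2 fold change -2.63, adjusted p = 0.00136).

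Among the 8 other voltage-gated, calcium-activated and background channels, all 3 open to a test between HS7 and HS3 were lower in HS7. So were 12.9% of all genes and 134 of 233 other listed genes. *Cacna1c* encodes the L-type calcium channel best known from heart and smooth muscle. It had 9.80 and 11.3 CPM in Control, 2.21 and 3.14 at HS1, 23.9 and 22.2 at HS3, 7.13 and 5.57 at HS7, and 7.50 and 4.29 at HS14. In the annotation *Cacna1c* overlaps 4 other genes, among them *Dcp1b*. *Cacna1g* encodes a T-type calcium channel, with 6.21 and 8.68 CPM in Control, 2.29 and 2.53 at HS1, 13.9 and 18.6 at HS3, 2.23 and 3.28 at HS7, and 2.11 and 1.68 at HS14. HS3 was above and HS1, HS7 and HS14 were below Control for both genes, with no overlap. This is the opposite order of HS3 and HS7 to that of *Cacna1s*. From HS3 to HS7, *Cacna1c* fell by 1.88 on the log2 scale (SE 0.16, adjusted p = 6.83e-07) and *Cacna1g* fell by 2.58 (SE 0.23, adjusted p = 1.16e-06). *Cacna1c* was also lower in HS14 than in HS3 (log2 fold change -1.97, SE 0.19, adjusted p = 1.98e-07), and HS14 against HS7 did not pass (log2 fold change -0.09, SE 0.25, adjusted p = 0.826), with overlapping libraries. The summed fibroblast and smooth muscle markers were likewise highest in HS3 and lower in HS7. Of these 10 markers, 6 were lower in both HS7 libraries than in both HS3 libraries (*Col1a1*, *Fbn1*, *Thy1*, *Pdgfra*, *Dpt* and *Pdgfrb*), 3 were higher (*Dcn*, *Notch3* and *Rgs5*) and *Lum* overlapped. Their part in this result was not tested.

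*Kcnk2* encodes a stretch-sensitive background potassium channel. Its CPM was 2.41 and 2.05 in Control, 0.572 and 1.05 at HS1, 4.57 and 5.17 at HS3, 1.05 and 0.750 at HS7, and 0.484 and 0.253 at HS14. HS3 lay above all other libraries and HS14 below them. *Kcnk2* rose from HS1 (0.809 ± 0.334, SD, n = 2) to HS3 (4.87 ± 0.420, n = 2) by 2.60 (SE 0.34, adjusted p = 2.57e-07) and fell from HS3 to HS7 by 2.45 (SE 0.32, adjusted p = 4.60e-05), and HS7 against HS1 did not pass (0.15, SE 0.50, adjusted p = 0.834). *Scn2a*, a sodium channel gene best known from neurons, had 3.40 and 3.56 CPM in Control, 3.35 and 2.53 at HS1, 4.32 and 7.00 at HS3, 1.22 and 0.789 at HS7, and 1.00 and 1.81 at HS14. It was low in HS7 and HS14. HS14 was lower than HS3 (log2 fold change -2.06, SE 0.31, adjusted p = 1.03e-05). HS3 over HS1, 0.96 (SE 0.27, adjusted p = 0.00462), was lost without HS1 replicate 2 (0.77, adjusted p = 0.0443), without HS3 replicate 2 (0.56, adjusted p = 0.183), with DESeq2 (0.0381) and with all 10 libraries (0.0134).

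*Kcnma1*, which encodes the large-conductance calcium-activated potassium channel, took another course. It had 0.356 and 0.455 CPM in Control, 0.123 and 0.0871 at HS1, 0.508 and 0.596 at HS3, 3.16 and 2.84 at HS7, and 1.00 and 1.85 at HS14. HS7 was the highest and HS14 the next, with no overlap, and in HS1 the gene was near the smallest detectable level. It had 3 and 2 counts in HS1 and entered the fits against HS1 only through the other group, so no test is given for them. The ratio of the summed counts of HS14 to those of HS1 was 13.1, a description only. HS14 over HS3 was 1.32 (SE 0.50, adjusted p = 0.0343) and did not pass.

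The other channels of this group were lower in level or not open to many tests. *Cacna1b*, an N-type calcium channel gene, had group means of 0.661 CPM in Control, 0.711 at HS1, 2.41 at HS3, 0.720 at HS7 and 0.292 at HS14. *Kcnk5*, a background potassium channel gene, had 5.50, 3.63, 4.02, 1.20 and 4.19 CPM in the same order of groups. HS7 was the low group for *Kcnk5*, and the tests that left HS7 out, HS3 and HS14 against HS1 and HS14 against HS3, gave adjusted p from 0.581 to 0.887. For *Cacna1b*, HS14 against HS1 was -1.26 (SE 0.62, adjusted p = 0.123).

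*Piezo2* encodes a channel opened by mechanical force, and it was listed for both HS1 and HS3, in opposite directions. Its CPM was 3.44 and 3.91 in Control, 0.981 and 1.00 at HS1, 15.2 and 14.9 at HS3, 7.82 and 4.07 at HS7, and 3.01 and 2.15 at HS14. Both HS3 libraries lay above and both HS1 libraries below all others. The log2 fold change was -1.89 (SE 0.31) in HS1 and 2.02 (SE 0.16) in HS3 against Control, and HS3 stood above HS1 by 3.92 (SE 0.23), with no test because the listing used both groups. The test open to it, HS14 against HS7, gave -1.18 (SE 0.31, adjusted p = 0.00991), and this was lost without HS7 replicate 1 (-0.64, adjusted p = 0.104), without HS14 replicate 1 (-1.46, adjusted p = 0.0411), without HS14 replicate 2 (-0.97, adjusted p = 0.143) and with RLE size factors (0.0102).

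*Trpv1*, which encodes the heat and capsaicin receptor of sensory neurons, had 0.632 and 0.531 CPM in Control, 0.409 and 0.610 at HS1, 2.64 and 1.75 at HS3, 2.51 and 1.11 at HS7, and 0.380 and 0.463 at HS14. HS3 and HS7 overlapped and lay above the other 6 libraries. HS7 over HS1 was 1.81 (SE 0.52, adjusted p = 0.00998) and HS14 below HS7 was -2.09 (SE 0.51, adjusted p = 0.00411). Both calls were lost with DESeq2 (0.0328 and 0.0134) and without HS7 replicate 1 (1.10, adjusted p = 0.215, and -1.38, adjusted p = 0.127). The first was lost also without HS1 replicate 1 (1.54, adjusted p = 0.0847) and without HS1 replicate 2 (2.11, adjusted p = 0.0345), and the second without HS14 replicate 1 (-1.94, adjusted p = 0.0613) and without HS14 replicate 2 (-2.22, adjusted p = 0.043). The Schwann and glial marker sum was also higher in HS3, where *S100b* was the largest of the 3, and in HS7, where *Erbb3* was, and its part in this result was not tested. Of 13 other mechanical channel genes, *Tmem63c* had a symbol. It was higher in HS3 than in HS1 by 2.12 (SE 0.53, adjusted p = 0.00182) and lower in HS7 than in HS3 (log2 fold change -2.27, SE 0.49, adjusted p = 0.0024).

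**Figure D4:**
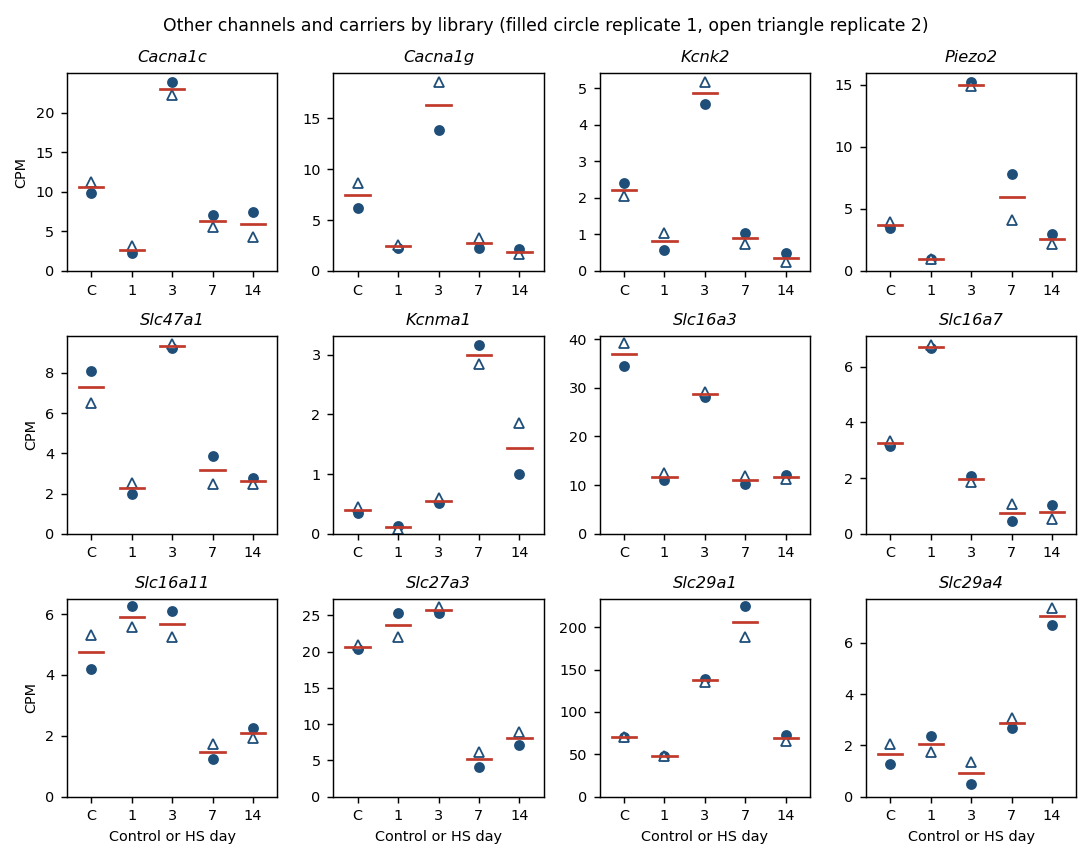
CPM from 0, scaled per panel, of 12 channels and carriers outside the coupling and excitability genes, in Control (C) and by day of HS (1, 3, 7 or 14), with filled circles for replicate 1, open triangles for replicate 2 and red bars for the mean of the 2. Cacna1c, Cacna1g, Kcnk2, Piezo2 and Slc47a1 have their highest mean in HS3, Kcnma1 and Slc29a1 at HS7, Slc29a4 at HS14, Slc16a7 at HS1 and Slc16a3 in Control.

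Among the carriers, *Slc16a3* encodes a monocarboxylate carrier that exports lactate, and it was listed for HS1, HS7 and HS14. Its CPM was 34.5 and 39.2 in Control, 11 and 12.5 at HS1, 28.2 and 29.1 at HS3, 10.3 and 11.8 at HS7, and 12.0 and 11.2 at HS14. HS3 lay just under Control, and the other 3 groups overlapped each other near 11 CPM. Against Control the log2 fold change was -1.65 (SE 0.11) in HS1, -0.37 (SE 0.10) in HS3, -1.74 (SE 0.11) in HS7 and -1.67 (SE 0.11) in HS14, and no test was open. It overlaps *Csnk1d* in the annotation.

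*Slc16a7* encodes a high-affinity monocarboxylate carrier and was highest in HS1. It had 3.16 and 3.34 CPM in Control, 6.66 and 6.79 at HS1, 2.08 and 1.87 at HS3, 0.446 and 1.07 at HS7, and 1.04 and 0.547 at HS14. HS1 lay above and HS3, HS7 and HS14 below Control, with HS7 and HS14 overlapping. From HS1 (6.73 ± 0.0938, SD, n = 2) to HS3 (1.98 ± 0.152, n = 2) it fell by 1.76 (SE 0.26, adjusted p = 1.31e-06), while most genes that passed between these groups rose. *Slc16a11*, an orphan member of the family that overlaps *Slc16a13*, had 4.19 and 5.31 CPM in Control, 6.25 and 5.57 at HS1, 6.10 and 5.25 at HS3, 1.22 and 1.74 at HS7, and 2.25 and 1.94 at HS14. Its HS1 and HS3 libraries overlapped (-0.06, SE 0.22, adjusted p = 0.85). It was lower in HS14, with log2 fold changes of -1.52 against HS1 (SE 0.24, adjusted p = 6.17e-05) and -1.45 against HS3 (SE 0.25, adjusted p = 4.60e-05). None of the 13 other energy substrate carriers listed, such as glucose and amino acid carriers, had a symbol.

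The nucleoside carrier gene *Slc29a1* had a course like that of *Cacna1s* with a smaller spread. Its CPM was 70.8 and 70.3 in Control, 48.1 and 48.5 at HS1, 139 and 136 at HS3, 225 and 189 at HS7, and 72.4 and 66.2 at HS14. The groups did not overlap except HS14 and Control. From HS1 (48.3 ± 0.263, SD, n = 2) to HS3 (138 ± 2.30, n = 2) the log2 fold change was 1.52 (SE 0.09, adjusted p = 7.14e-15), from HS3 to HS14 (69.3 ± 4.39, n = 2) it was -1.01 (SE 0.08, adjusted p = 2.73e-10), and HS14 exceeded HS1 by 0.50 (SE 0.08, adjusted p = 4.92e-05). These calls held in each alternative run. *Slc29a4*, which encodes a monoamine and nucleoside carrier of the same family, was the one gene highest in HS14, with group means of 1.66 CPM in Control, 2.06 at HS1, 0.930 at HS3, 2.88 at HS7 and 7.04 at HS14. HS7 over HS3 was 1.56 (SE 0.42, adjusted p = 0.0101), just over the threshold. This difference passed with all 10 libraries (0.00129) and without the expression filter (0.000282), but not with DESeq2 (0.0241) or RLE size factors (0.0112). Leaving out 1 library, it ran from 1.07 to 2.47. HS3 below HS1, -1.09 (SE 0.44, adjusted p = 0.045), did not pass. Nor did it with DESeq2 (0.18), RLE size factors (0.0459), all 10 libraries (0.0228) or no expression filter (0.0284). Leaving out 1 library, the log2 fold change ran from -2.00 to -0.59.

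*Slc47a1*, which encodes an exporter of organic cations, had 8.10 and 6.52 CPM in Control, 2.0 and 2.53 at HS1, 9.25 and 9.46 at HS3, 3.89 and 2.49 at HS7, and 2.77 and 2.48 at HS14. HS3 was the highest group, and HS1, HS7 and HS14 overlapped below Control. It fell from HS3 to HS7 by 1.57 (SE 0.24, adjusted p = 0.000162) and was lower in HS14 than in HS3 (log2 fold change -1.85, SE 0.21, adjusted p = 8.78e-08). *Slco4a1*, an organic anion carrier gene, had 4.19 and 4.66 CPM in Control, 2.04 and 3.61 at HS1, 5.18 and 4.85 at HS3, 1.58 and 1.22 at HS7, and 2.28 and 2.02 at HS14. Its HS3 libraries were the highest, and HS14 was lower than HS3 (log2 fold change -1.24, SE 0.26, adjusted p = 0.000356). HS3 over HS1, 0.83 (SE 0.28, adjusted p = 0.0153), passed without the expression filter (0.00736) but not with DESeq2 (0.0891), RLE size factors (0.0155) or all 10 libraries (0.0181). Leaving out 1 library, this fold ran from 0.47 to 1.30. *Slco5a1*, another of that family, was listed for HS1 and HS7, with 1.74 and 1.37 CPM in Control, 0.409 and 0.435 at HS1, 2.74 and 3.74 at HS3, 6.04 and 4.38 at HS7, and 1.66 and 1.68 at HS14. HS14 and Control overlapped, HS1 was the lowest and HS7 the highest. HS14 below HS3 was -0.98 (SE 0.31, adjusted p = 0.0123). It passed without the expression filter (0.00727) but not with DESeq2 (0.0751), RLE size factors (0.0121) or all 10 libraries (0.0123). Leaving out 1 library, this fold ran from -1.18 to -0.74.

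*Slc27a3* encodes an acyl-CoA synthetase of the fatty acid transport family. It had 20.4 and 20.9 CPM in Control, 25.3 and 22.1 at HS1, 25.3 and 26.2 at HS3, 4.13 and 6.16 at HS7, and 7.16 and 8.92 at HS14. HS7 and HS14 lay below the other 6 libraries. HS3 against HS1 did not pass (0.12, SE 0.12, adjusted p = 0.445), and HS14 was lower than HS1 (log2 fold change -1.59, SE 0.14, adjusted p = 6.51e-08) and lower than HS3 (log2 fold change -1.71, SE 0.14, adjusted p = 3.26e-10). *Slc26a7*, an anion exchanger gene, had 1.58 and 1.21 CPM in Control, 1.59 and 0.435 at HS1, 4.42 and 2.7 at HS3, 13.4 and 5.76 at HS7, and 1.45 and 0.968 at HS14. HS7 was the highest, and its 2 libraries were far apart. HS3 over HS1, 1.78 (SE 0.44, adjusted p = 0.00241), was lost without HS1 replicate 2 (1.15, adjusted p = 0.0181), without HS3 replicate 1 (1.41, adjusted p = 0.025) and with all 10 libraries (0.0293). HS14 below HS3, -1.55 (SE 0.35, adjusted p = 0.000733), was lost without HS3 replicate 1 (-1.16, adjusted p = 0.019) and with all 10 libraries (0.0461).

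*Slc24a3*, *Slc30a3* and *Slc17a6* passed no test. *Slc24a3*, a sodium, potassium and calcium exchanger gene, had group means of 3.43 CPM in Control, 4.22 at HS1, 4.72 at HS3, 9.71 at HS7 and 6.72 at HS14. HS14 over HS1 was 0.66 (SE 0.21, adjusted p = 0.0199). It passed without the expression filter (0.00738) but not with DESeq2 (0.0952), RLE size factors (0.0192) or all 10 libraries (0.0138). Leaving out 1 library, this fold ran from 0.38 to 0.87. *Slc30a3*, a zinc carrier gene, had 0.661, 0.811, 0.826, 2.84 and 0.759 CPM in the same order. *Slc17a6*, which encodes a vesicular glutamate carrier, had 1.11, 1.04, 0.475, 0.121 and 0.468 CPM and in HS7 was at the smallest detectable level. Adjusted p ran from 0.868 to 0.983 for *Slc30a3* and from 0.077 to 0.993 for *Slc17a6* over the 3 tests open to each.

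Counts of 0 in both libraries of a group were found for 3 genes. *Slc5a7*, which encodes the choline carrier of cholinergic neurons, was listed for HS7 and HS14, with 0.316 and 0.455 CPM in Control, 0.163 and 0 at HS1, 0.813 and 1.75 at HS3, and 0 in all 4 libraries of HS7 and HS14. Its highest count was 44, in HS3 replicate 2. HS3 was at least 10.7-fold higher than HS7 and at least 11.1-fold higher than HS14, taking 3 counts per library for the groups at 0. HS1 had 4 and 0 counts, so the gene entered the fit of HS3 against HS1 only through HS3, where it is high, and no test is given. The ratio of the summed counts of HS3 to those of HS1 was 15.9, a description only.

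*Slc25a48*, a mitochondrial carrier gene that overlaps *Il9* in the annotation, had 0 counts in HS3 and HS7, 10 and 11 in Control, 14 and 18 at HS1, and 23 and 12 at HS14. HS3 was at least 5.00-fold lower than HS1, and HS14 was at least 4.80-fold higher than HS3. The gene entered both fits only through the group in which it was detected, so no test is given. The gene was not fitted without HS1 replicate 2 in the first comparison or without HS14 replicate 1 in the second. *Kcnk3*, a background potassium channel gene, had 0 counts in HS3 alone, with 22 and 12 in Control, 22 and 20 at HS1, 14 and 22 at HS7, and 6 and 18 at HS14. Its mean was at least 4.89-fold higher in Control than in HS3 and at least 6.53-fold higher in HS1. HS1, HS7 and HS14 were open to tests against each other, which gave adjusted p from 0.215 to 0.629. Limits from these counts cover counting error only. They also take each count as a separate observation, while 69.4% to 72% of counts from 1 to 20 were even. Whether both reads of a pair were counted is not known. If they were, 3 counts stand for fewer molecules and the bounds above would be smaller.

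**Figure D5:**
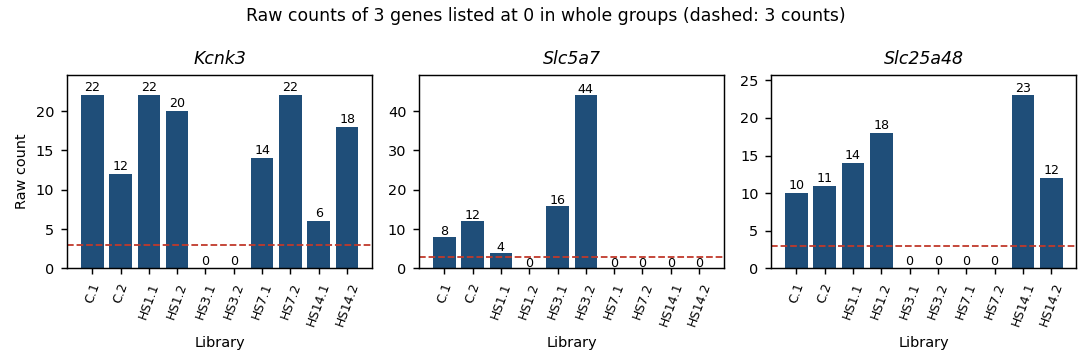
Raw count (bars from 0, value printed above each) of Kcnk3, Slc5a7 and Slc25a48 in the 10 libraries (C, Control; the number after the point is the replicate), with a dashed line at 3 counts. Kcnk3 is at 0 in both HS3 libraries, Slc5a7 in both HS7 and both HS14 libraries, and Slc25a48 in all 4 libraries of HS3 and HS7.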

How the data were processed

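RNA from cultured soleus myoblasts was sequenced in 10 libraries, 2 per group. The authors aligned reads with STAR, assigned them to 32622 Ensembl genes with featureCounts, and deposited the raw counts without normalizing them. The paper's methods name the genome mRatBN7.2, and the submitters' processing notes name Rnor_6.0, with STAR 2.7 and featureCounts 1.6.4; the settings for strand, read pairs and multiply mapped reads are not given in the sources used here. Between 69.4% and 72% of counts from 1 to 20 were even numbers. Symbols came from the study's lists, which pair them with Ensembl identifiers. With all 38 genes found in the reference, 17 overlap another annotated gene there. Values of 2 of the 38 genes are not reported here.

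Each comparison was fitted on its 4 libraries with edgeR 4.0.16 (R 4.3.3, limma 3.58.1): filterByExpr, TMM, robust quasi-likelihood test, prior count 0.125, Benjamini-Hochberg adjustment over all genes tested. The genes, their roles and the other lists were chosen with earlier results of these data known. A gene was tested between 2 HS groups where the study listed it for neither. CPM in all libraries is given for genes with a mean of at least 1 CPM in some group and a passing test, or listed for more than 1 group. Alternatives were leaving out each library, DESeq2 1.42.0, a replicate block, RLE size factors, another fold threshold, fitting all 10 libraries together, and dropping the filter. Scripts were tested on simulated data. With 2 libraries per group, each SD is that of 2 values. The columns of the authors' own comparisons hold fold changes and p-values and were not used.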

Additional observations from a re-analysis of the deposited data

Results flagged for a closer look

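Pairs of HS groups were compared where a gene was listed for neither or for both. Among the genes reported here, 11 such comparisons had 1 group above and the other below Control, each with an adjusted p under 0.01. The fit of 1 group against the other gave an adjusted p under 0.01 as well. All of these values served for the selection, so each p printed below had to be under 0.01 and adds no support. The comparisons with Control remain a description with no test. Genes listed for 1 of the 2 groups were not considered. The value given is the log2 fold change between the 2 HS groups. HS3 lay above Control and HS1 below for *Cacna1s* (1.94, adjusted p = 6.97e-13), *Chrnd* (2.25, 5.97e-15), *Kcnk2* (2.60, 2.57e-07) and *Slc29a1* (1.52, 7.14e-15), all with edgeR's quasi-likelihood test. The same held for *Piezo2* (3.92) and, between HS7 and HS1, for *Slco5a1* (3.60). For these genes the difference counts as not tested and no p is given, since they were listed for both groups. HS3 lay above Control, with HS7 below it, for *Cacna1c* (-1.88, adjusted p = 6.83e-07) and *Cacna1g* (-2.58, 1.16e-06), and with HS14 below it for *Cacnb1* (-1.35, 4.96e-09) and *Cacna1c* (-1.97, 1.98e-07). HS7 lay above and HS14 below for *Kcnj12* (-2.18, 3.69e-06).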

How the results depend on the processing

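Of 889 values of single genes recomputed between HS groups, 817 stayed on their side of the threshold, 45 were no longer past it and 27 came to pass it. RLE size factors left 98 of 99 on their side, DESeq2 89 of 99, all 10 libraries in one fit 89 of 99, no expression filter 94 of 99, and leaving out 1 library 353 of 394, where a group left with 1 library is assumed to vary like the other. Against Control, a log2 fold change beyond 1 gave 11 genes in HS1 (7 beyond 1.5), 15 in HS3 (7) and 12 in HS14 (6), DESeq2 gave 4 in HS3, and leaving out 1 library gave 11 to 25 in HS7 (22), with 11 without Control replicate 2. Asking also for a log2 fold change beyond 1.5 left 4 of 9 genes between HS14 and HS1 and 8 of 15 between HS14 and HS3, fewer by construction. Leaving out 1 library gave 0 to 3 genes between HS7 and HS1 (2) and 1 to 4 between HS14 and HS7 (3). The cause of the other changes was not tested.

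The replicate numbers did not mark pairs: over 13691 genes the correlation of the deviations of same-numbered libraries lay between -0.0165 and 0.0417 over the 10 pairs of groups. With the replicate number as a block, 94 of 99 values stayed on their side of the threshold and 5 came to pass it (*Slco4a1* in HS3 against HS1, *Scn2a* and *Slc24a3* in HS14 against HS1, and *Ryr1* in HS7 against HS1 and in HS14 against HS7, with adjusted p from 4.67e-15 to 0.0077), and the counts were 16 between HS3 and HS1, 3 between HS7 and HS1, 11 between HS14 and HS1, 5 between HS7 and HS3, 15 between HS14 and HS3 and 4 between HS14 and HS7.

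Of the 889 values, 33 changed sign, and in 0 of them did either fit pass. Leaving out 1 library, the log2 fold change of HS3 against HS1 ran from -0.01 to 0.31 for *Kcnk5*, from -0.16 to 0.05 for *Slc16a11* and from -0.47 to 0.73 for *Slc30a3*. Between HS7 and HS1 it ran from -0.34 to 0.44 for *Cacna1b* and from -0.23 to 0.63 for *Kcnk2*. Between HS14 and HS1 the ranges were -0.40 to 0.01 for *Cacnb1*, -0.06 to 0.39 for *Kcnk5*, -0.56 to 0.01 for *Trpv1*, -0.77 to 0.05 for *Slco4a1*, -0.60 to 0.60 for *Slc30a3*, -0.41 to 1.45 for *Slc26a7* and -0.44 to 0.21 for *Slc25a48*. Between HS14 and HS3 they were -0.20 to 0.25 for *Kcnk5*, -0.65 to 0.91 for *Slc17a6* and -0.45 to 0.23 for *Slc30a3*, and between HS14 and HS7 -0.56 to 0.25 for *Cacna1c*, -1.76 to 0.08 for *Kcnk3* and -0.55 to 0.08 for *Slc47a1*. *Cacna1b* in HS7 against HS1 was 0.00 with DESeq2, 0.01 with all 10 libraries and 0.03 with the replicate block, and *Slc17a6* in HS14 against HS3 was 0.01 with all 10 libraries and 0.02 with the block.

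Levels near or below 3 counts (0.104 to 0.152 CPM) limit *Slc5a7* in HS1, HS7 and HS14, and *Slc25a48* in HS3 and HS7. They also limit *Slc17a6* in HS7, *Kcnk3* in HS3 and *Kcnma1* in HS1. In these groups a difference of a few counts decides the fold.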
